A study of Homo sapiens with 6 samples.

Results

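Genes of sterol and fatty acid synthesis were compared between HSD52_OE cells, which are LN229 cells overexpressing the long non-coding RNA gene HSD52, and LN229 cells that the labels call WT, which served as controls (3 libraries per group). LN229 is an established human glioblastoma line. A fixed list of 36 genes, matched by symbol, was taken from the 58735 genes of the count table. All 36 were found, and all 36 passed the filter on low counts. They comprised 4 regulators, 16 sterol genes and 16 fatty acid genes. The rule matched names and used no measured value, but the list was drawn up with earlier results of these data known. The labels do not say whether control cells carried an empty vector, whether the overexpressing line was 1 clone, or whether replicates were separate cultures, so p-values measure only the spread between these libraries. Library totals ran from 17777157 to 18917790 counts. More genes had a count in HSD52_OE libraries (26359 to 26755) than in control libraries (22855 to 23545). HSD52 was at 67.4, 69.5 and 67.4 CPM (counts scaled to a common library size by TMM) in HSD52_OE libraries and at 0.642, 0.398 and 0.666 CPM in control libraries.

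Cells make cholesterol from acetyl-CoA through the mevalonate pathway and a series of sterol-modifying enzymes, and they make fatty acids from the same precursor through carboxylation, chain synthesis, elongation and desaturation. Both routes are under the SREBP transcription factors, the products of SREBF1 and SREBF2. Their precursors are carried from the endoplasmic reticulum to the Golgi by SCAP, held back by INSIG proteins when sterol is plentiful, and cut to release the active factor. Glioma cells are known to draw on this system for membrane lipid.

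In HSD52_OE cells 20 of the 36 genes fell and 1 rose, at an adjusted p under 0.05 (edgeR quasi-likelihood test, Benjamini-Hochberg adjustment over 16322 genes). The other 15 passed in neither direction. Over all genes tested, 25.6% fell and 25% rose (50.6% in either direction). Over protein-coding genes the shares were 30.1% lower and 21.4% higher (51.4% in either direction), and over genes with a mean of at least 10 CPM they were 33.9% lower and 19.1% higher (53% in either direction). The median log2 fold change, HSD52_OE over control, was -0.40 over the 36 genes, against 0.01 over all genes tested and -0.09 over those with at least 10 CPM. Most of the changes were moderate: at a fold of at least 2, only SCD5 and FADS2 fell and only SC5D rose, where 3.49% of all genes tested fell and 10.5% rose by that much (2.37% and 1.89% of those with at least 10 CPM). The groups did not overlap for 23 of the 36 genes, with HSD52_OE lower in 22 and higher in 1. Of all genes tested 58.9% did not overlap, 29.3% with HSD52_OE lower and 29.6% with it higher. Of those with at least 10 CPM 61.5% did not overlap, 38.4% lower and 23.1% higher.

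**Figure D1:**
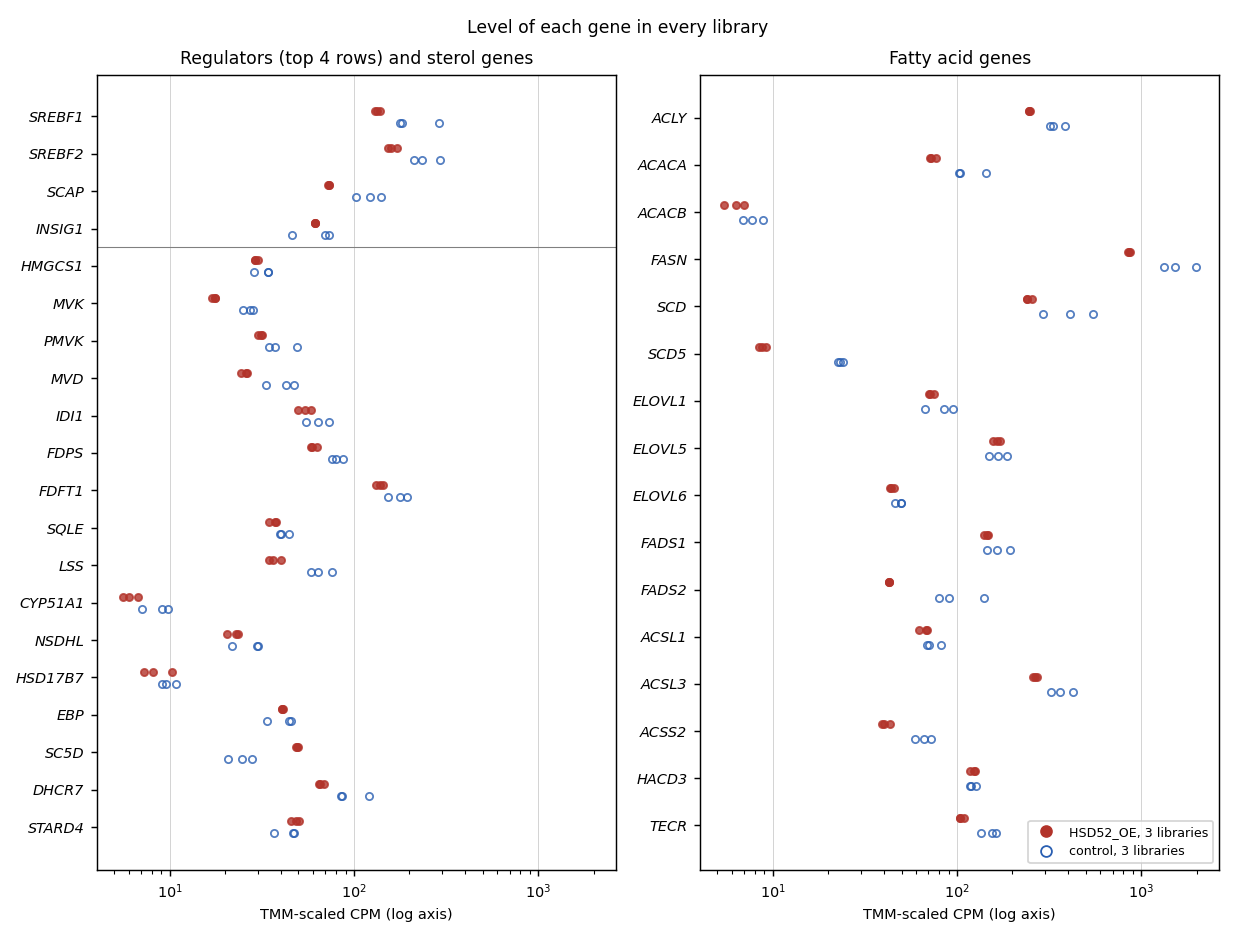
Level of each of the 36 genes in every library, in TMM-scaled CPM on a log axis, with filled circles for the 3 HSD52_OE libraries and open circles for the 3 control libraries. HSD52_OE libraries lie close together and mostly left of the control libraries, SC5D being the gene with all 3 HSD52_OE libraries to the right.

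RefSeq promoter windows (GRCh38.p14, from 250 bases before to 50 bases after a transcript start) were matched for 33 of the 36 genes, all but FASN, FDFT1 and SQLE, in 50 windows, since some genes have several starts. They were searched on both strands for the classical sterol regulatory element of 10 bases, whose letters stand in capitals in the SREBF2 window, for the shorter and looser form TCACNCCAC, which lies within it, and for CCAAT, the core of the NF-Y site that often stands beside such elements. Windows are shown for SREBF2, the one gene with the exact element, for SC5D, the one that rose, and for LSS, SCD, SCD5 and FADS2, which fell. Capitals mark the matches, and ATTGG is CCAAT on the other strand. The windows were chr22:41832855-41833154 (plus strand) for SREBF2, chr11:121292602-121292901 (plus strand) for SC5D, chr21:46228725-46229024 (minus strand) for LSS, chr10:100346983-100347282 (plus strand) for SCD, chr4:82798747-82799046 (minus strand) for SCD5 and chr11:61816154-61816453 (plus strand) for FADS2.
SREBF2: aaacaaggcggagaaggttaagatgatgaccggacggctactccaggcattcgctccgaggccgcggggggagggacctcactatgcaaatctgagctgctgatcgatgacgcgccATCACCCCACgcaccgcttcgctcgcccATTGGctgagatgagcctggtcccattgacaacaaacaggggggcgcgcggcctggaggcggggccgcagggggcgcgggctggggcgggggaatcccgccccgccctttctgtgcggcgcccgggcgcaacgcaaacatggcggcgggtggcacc
SC5D: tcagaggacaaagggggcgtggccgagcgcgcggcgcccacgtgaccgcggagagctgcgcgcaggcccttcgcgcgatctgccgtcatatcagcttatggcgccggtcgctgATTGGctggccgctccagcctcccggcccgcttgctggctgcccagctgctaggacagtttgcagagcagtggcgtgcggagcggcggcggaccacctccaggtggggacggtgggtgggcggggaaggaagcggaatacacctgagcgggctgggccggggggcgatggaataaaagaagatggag
LSS: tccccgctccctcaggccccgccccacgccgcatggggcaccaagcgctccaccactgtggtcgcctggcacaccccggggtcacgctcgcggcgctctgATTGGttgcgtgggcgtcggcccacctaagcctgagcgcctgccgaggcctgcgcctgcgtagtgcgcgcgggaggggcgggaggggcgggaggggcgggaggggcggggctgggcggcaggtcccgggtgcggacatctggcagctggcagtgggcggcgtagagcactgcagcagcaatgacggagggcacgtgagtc
SCD: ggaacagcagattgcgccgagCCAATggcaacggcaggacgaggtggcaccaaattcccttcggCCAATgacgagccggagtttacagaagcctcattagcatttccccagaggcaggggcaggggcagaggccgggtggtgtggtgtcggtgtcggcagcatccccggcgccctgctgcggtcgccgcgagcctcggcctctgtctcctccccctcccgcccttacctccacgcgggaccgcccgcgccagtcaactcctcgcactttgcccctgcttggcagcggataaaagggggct
SCD5: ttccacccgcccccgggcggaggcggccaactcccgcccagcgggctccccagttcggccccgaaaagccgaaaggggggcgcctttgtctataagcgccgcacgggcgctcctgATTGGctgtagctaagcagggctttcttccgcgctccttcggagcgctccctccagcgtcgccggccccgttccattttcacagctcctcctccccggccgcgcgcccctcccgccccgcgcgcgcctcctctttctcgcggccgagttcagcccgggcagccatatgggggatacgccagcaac
FADS2: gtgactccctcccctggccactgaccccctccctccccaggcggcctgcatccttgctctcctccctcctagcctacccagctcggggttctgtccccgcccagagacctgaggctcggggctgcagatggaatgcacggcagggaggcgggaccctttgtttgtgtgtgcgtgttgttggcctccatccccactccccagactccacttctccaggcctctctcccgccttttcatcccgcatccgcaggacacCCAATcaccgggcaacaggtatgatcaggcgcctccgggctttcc

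The classical element stood in 1 of the 50 windows, that of SREBF2, beginning 133 bases upstream of the start, with a CCAAT on the minus strand beginning 106 bases upstream. The same letters stood in 16 of 34943 promoter windows of the reference (0.0458%). TCACNCCAC stood in 2 of the 50 windows, those of SREBF2 and ACSL1, against 1.12% of all windows. CCAAT stood in 32 of the 50 windows, against 34.6% of all windows: in 14 of 19 windows of sterol genes, 16 of 27 of fatty acid genes and 2 of 4 of regulators. Among windows of genes that fell it stood in 17 of 25, among those of genes that passed in neither direction in 13 of 23, and in both windows of SC5D, which overlap and hold the same match. ACLY and TECR, which fell, also have overlapping windows that hold the same matches, so these counts include some sites repeatedly. CCAAT thus occurred in windows of genes of either direction and of neither.

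Of the 4 regulators 3 fell and 0 rose in edgeR's test, where 25.6% of all genes tested fell and 25% rose. In DESeq2, in limma-voom or at an unadjusted p under 0.05, 0 of the 4 rose. SREBF1, the form tied mostly to fatty acid genes, was at 133, 129.8 and 139 CPM in HSD52_OE libraries, against 291, 178 and 182 CPM in control libraries. SREBF2, the form tied mostly to sterol genes, was at 154, 159 and 172 CPM in HSD52_OE libraries, against 294, 211 and 234 CPM in control libraries. Every HSD52_OE library was below every control library for both genes, and control replicate 1 stood above the other 2 control libraries. The log2 fold changes were -0.70 ± 0.17 for SREBF1 (SE, edgeR quasi-likelihood adjusted p = 0.00582) and -0.61 ± 0.11 for SREBF2 (adjusted p = 0.000301). Without control replicate 1 they were -0.45 and -0.48, with adjusted p of 0.000553 and 0.000714. Over all alternatives the adjusted p ranged from 6.88e-13 to 0.0195 for SREBF1 and from 1.06e-10 to 0.00264 for SREBF2. In the annotation SREBF1 shares 556 of its 8030 exonic bases with RAI1, where reads of the 2 genes are uncertain.

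SCAP, the escort of the SREBP precursors, fell as well. It was at 73.2, 73.5 and 72.0 CPM in HSD52_OE libraries and at 139.5, 123 and 103 CPM in control libraries, a fold of 0.599 (log2 fold change -0.74 ± 0.10, edgeR adjusted p = 2.48e-05). INSIG1, which retains SCAP and is itself a target of the SREBP factors, did not pass. It was at 61.6, 61.6 and 61.4 CPM in HSD52_OE libraries, within the control range of 73.1, 46.0 and 69.9 CPM (log2 fold change -0.03, 95% interval -0.32 to 0.25). Without control replicate 2, the lowest of the controls, INSIG1 had -0.22 with an adjusted p of 0.0244 (edgeR; 0.0244 to 0.983 over all alternatives). In length-scaled values (TPM), SREBF1 made up 43.8% ± 0.945 of the SREBF1 and SREBF2 sum in HSD52_OE cells and 45.0% ± 3.01 in control cells (SD, n = 3), a difference smaller than the spread between control libraries.

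Over all genes tested 25.6% fell and 25% rose at an edgeR adjusted p under 0.05. Of the 16 sterol genes 8 fell (50%) and 1 rose (6.25%), and their median fold change on the log2 scale was -0.32. Those that fell were spread over the route, from the mevalonate kinase step to the last reductase. HMGCS1, IDI1, SQLE, NSDHL, HSD17B7, EBP and STARD4 passed in neither direction. In the early, mevalonate part, HMGCS1, a synthase at the head of the pathway, was at 29.5 ± 0.670 CPM in HSD52_OE cells and 32.3 ± 3.07 CPM in control cells, and did not pass (95% interval of the log2 fold change -0.34 to 0.08). MVK, mevalonate kinase, was at 17.1, 17.5 and 17.6 CPM in HSD52_OE libraries, against 28.4, 27.3 and 25.1 CPM in control libraries. MVD, which decarboxylates mevalonate diphosphate to the first isoprenoid, was at 25.9, 26.1 and 24.4 CPM in HSD52_OE libraries, against 42.6, 47.5 and 33.4 CPM in control libraries. Both genes separated the groups fully, with log2 fold changes of -0.63 ± 0.10 and -0.69 ± 0.12 (edgeR adjusted p = 0.000111 and 0.000190). MVK shares 306 of its 6480 exonic bases with MMAB in the annotation, where reads of MVK and MMAB are uncertain.

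PMVK, phosphomevalonate kinase, acts between these 2 enzymes and changed less: its log2 fold change was -0.37 ± 0.12 (edgeR adjusted p = 0.0157). It lost the call without HSD52_OE replicate 2 (adjusted p = 0.0630), without control replicate 2 (0.0667) and with library totals alone (0.0869), in a range from 0.000667 to 0.0869. IDI1, the isomerase that follows, was at 54.0 ± 4.36 CPM in HSD52_OE cells and 64.1 ± 9.03 CPM in control cells, with overlapping libraries (adjusted p = 0.0617). IDI1 passed as lower in 3 of 14 alternatives, with an adjusted p of 0.00781 without control replicate 2 and 0.0153 with no filter beyond 1 count among them (range 0.00781 to 0.364). FDPS, which joins the isoprenoids to farnesyl diphosphate, fell by 0.43 ± 0.09 on the log2 scale, to 60.0 ± 2.31 CPM in HSD52_OE cells, against 81.0 ± 6.07 CPM in control cells. Antisense genes cover 693 of the 3718 exonic bases of FDPS and 643 of the 4345 of IDI1, so without strand part of these counts is uncertain.

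The committed sterol steps showed the strongest fall at LSS, lanosterol synthase, which closes the sterol rings. Its level was 36.2, 40.0 and 34.4 CPM in HSD52_OE libraries, against 76.4, 63.8 and 58.4 CPM in control libraries. The log2 fold change was -0.85 ± 0.11 (edgeR adjusted p = 1.11e-05), and no HSD52_OE library came near the lowest control. FDFT1, squalene synthase, fell by 0.35 ± 0.09 on the log2 scale (adjusted p = 0.00558, but 0.0528 with library totals alone, the highest of a range that begins at 0.000254). SQLE, squalene epoxidase, the oxygen-using enzyme between these 2, was at 36.6 ± 1.78 CPM in HSD52_OE cells and 41.6 ± 2.69 CPM in control cells. Its libraries did not overlap, yet its adjusted p was 0.107.

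After lanosterol, CYP51A1, the demethylase, was low in the table, at 6.03, 6.76 and 5.59 CPM in HSD52_OE libraries and 9.05, 9.79 and 7.05 CPM in control libraries (log2 fold change -0.49 ± 0.16, edgeR adjusted p = 0.0182). In the GENCODE 29 annotation 2982 of its 3584 exonic bases are shared with other genes, 2844 of them with AC000120.2 on the same strand, which is listed at 0 counts in all 6 libraries. Its level per length is therefore uncertain. Its call was lost without HSD52_OE replicate 1 (adjusted p = 0.0561), without HSD52_OE replicate 3 (0.0761), without control replicate 2 (0.0691) and with library totals alone (0.0652), in a range from 0.00392 to 0.0761. NSDHL and HSD17B7, which take part in removing the methyl groups, and EBP, the sterol isomerase, passed in neither direction, with log2 fold changes of -0.29, -0.20 and -0.01. NSDHL, at an adjusted p of 0.0609, passed as lower in 3 of 14 alternatives, with 0.00221 without control replicate 3 and 0.0171 with no filter beyond 1 count among them (range 0.00221 to 0.265).

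At the last 2 steps the sterol genes parted. SC5D, the desaturase that acts just before the final reductase, rose to 49.0, 48.4 and 49.8 CPM in HSD52_OE libraries, against 28.0, 20.8 and 24.7 CPM in control libraries. DHCR7, the final reductase on the same branch, was at 64.7, 65.0 and 69.1 CPM in HSD52_OE libraries, against 121, 85.0 and 86.5 CPM in control libraries. The libraries separated for both genes, in opposite directions: the log2 fold change of SC5D was 1.004 ± 0.11 (edgeR adjusted p = 2.39e-06) and that of DHCR7 was -0.56 ± 0.12 (adjusted p = 0.00100). STARD4, a carrier of sterol between membranes, did not pass, at 47.9 ± 2.42 CPM in HSD52_OE cells and 43.6 ± 5.74 CPM in control cells. It overlaps STARD4-AS1 by 124 exonic bases, and without strand their reads cannot be told apart there; with library totals alone its adjusted p was 0.0498 (range 0.0498 to 0.831).

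**Figure D2:**
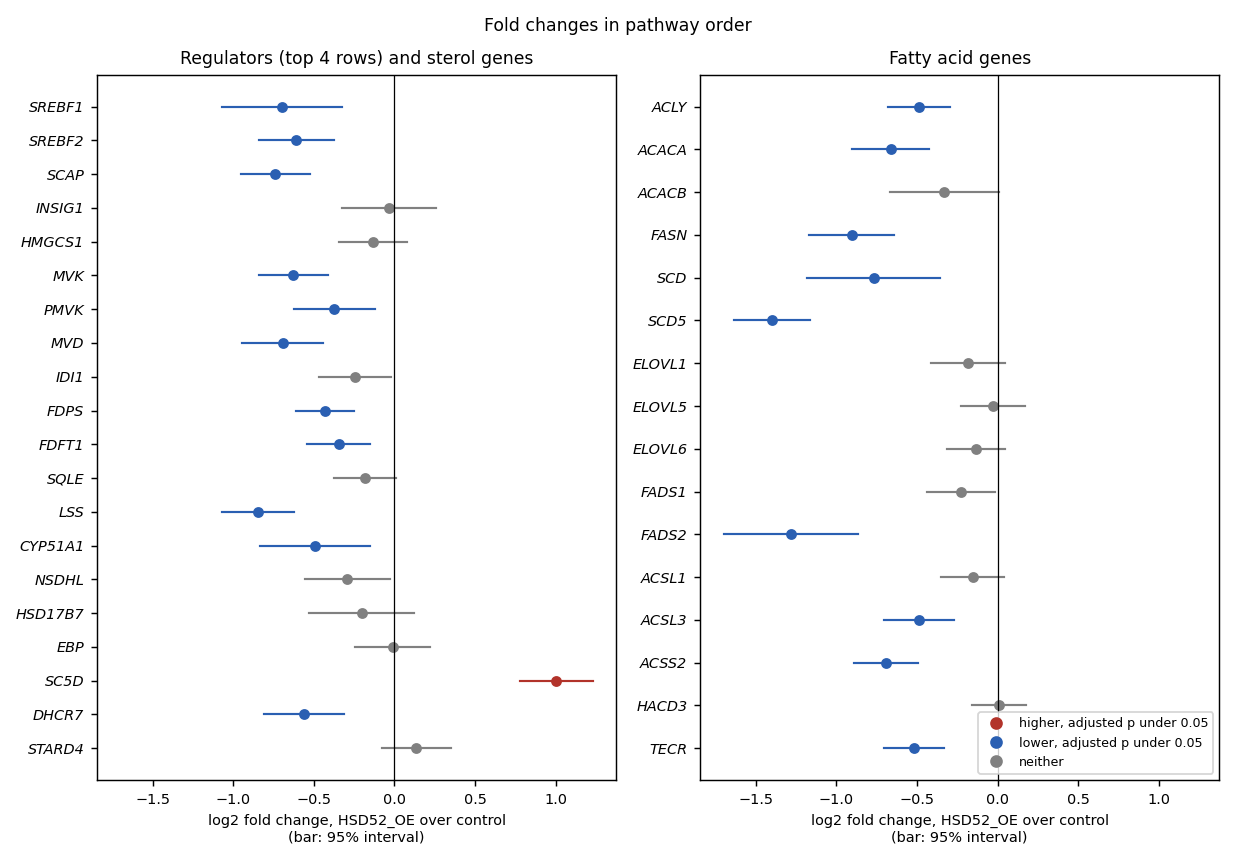
Log2 fold change of each gene, HSD52_OE over control, with its 95% interval, in order of the pathway from top to bottom. SC5D at 1.004 is the gene placed right of 0 that passed the test, between EBP at -0.01 and DHCR7 at -0.56. SCD5 and FADS2 lie farthest left, at -1.40 and -1.28.

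In edgeR's test 25.6% of all genes tested fell and 25% rose. Of the 16 fatty acid genes 9 fell (56.2%) and 0 rose in it, and their median fold change on the log2 scale was -0.49. None rose in DESeq2 or limma-voom, and 0 had an unadjusted p under 0.05 in that direction. Before elongation, ACLY, ACSS2, ACACA and FASN fell, and ACACB passed in neither direction. ACLY, which cuts citrate to acetyl-CoA, was at 246, 245 and 249 CPM in HSD52_OE libraries, against 385, 321 and 333 CPM in control libraries. ACSS2, which makes acetyl-CoA from acetate, was at 40.2, 39.0 and 43.2 CPM in HSD52_OE libraries, against 72.4, 59.1 and 66.2 CPM in control libraries. Both sources of acetyl-CoA thus lay below every control library (log2 fold changes -0.49 ± 0.09 and -0.69 ± 0.09, edgeR adjusted p = 0.000381 and 2.48e-05).

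ACACA, the carboxylase that commits acetyl-CoA to fatty acid synthesis, was at 72.3, 71.7 and 77.3 CPM in HSD52_OE libraries, against 144, 104 and 103 CPM in control libraries (log2 fold change -0.66 ± 0.11, edgeR adjusted p = 0.000200). Its paralogue ACACB, at the outer mitochondrial membrane and known for restraining fatty acid oxidation, was low, at 6.22 ± 0.776 CPM in HSD52_OE cells and 7.82 ± 1.004 CPM in control cells. It did not pass (adjusted p = 0.0975), and had 0.0455 without control replicate 3 (range 0.0455 to 0.335). FASN, the fatty acid synthase, was at 864, 851 and 871 CPM in HSD52_OE libraries, against 1979, 1531 and 1334 CPM in control libraries. Its fold was 0.534 (log2 fold change -0.91 ± 0.12, edgeR adjusted p = 2.64e-05), and the lowest control library was well above all 3 HSD52_OE libraries. Per length, FASN was the most abundant of the 36 transcripts, at 339 ± 5.99 TPM in HSD52_OE cells and 598 ± 118 TPM in control cells.

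The desaturases SCD5 and FADS2 had the lowest folds of the 36 genes. SCD5, a stearoyl-CoA desaturase known from brain, was at 8.45, 8.79 and 9.19 CPM in HSD52_OE libraries, against 23.1, 22.5 and 24.1 CPM in control libraries. It was steady within each group, with a fold of 0.380 (log2 fold change -1.40 ± 0.11, edgeR adjusted p = 1.59e-07). SCD, the main stearoyl-CoA desaturase, was at 241, 239 and 256 CPM in HSD52_OE libraries and scattered in control libraries, at 547, 293 and 412 CPM. Its log2 fold change was -0.77 ± 0.18 (edgeR adjusted p = 0.00616), and without control replicate 3 the adjusted p was 0.0790 at a log2 fold change of -0.78 (range 9.62e-11 to 0.0790). SCD5 made up 4.30% ± 0.104 of the summed TPM of both desaturases in HSD52_OE cells and 6.85% ± 1.86 in control cells.

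The neighbouring genes FADS2 and FADS1 encode the desaturases that act in turn on polyunsaturated fatty acids. FADS2 was at 42.6, 42.9 and 42.5 CPM in HSD52_OE libraries, against 140.4, 80.1 and 90.5 CPM in control libraries. FADS1 was at 140.0, 145 and 147 CPM in HSD52_OE libraries, against 195, 145 and 166 CPM in control libraries. FADS2 fell to a fold of 0.412 (log2 fold change -1.28 ± 0.18, edgeR adjusted p = 0.000397), whereas FADS1 had overlapping libraries and did not pass (log2 fold change -0.23 ± 0.10, adjusted p = 0.0667). FADS2 made up 22%, 21.5% and 21.2% of their summed TPM in HSD52_OE libraries and 40.1%, 33.9% and 33.7% in control libraries. The 2 genes overlap by 490 exonic bases on opposite strands, where reads cannot be assigned without strand, and FADS1 passed as lower in 3 of 14 alternatives: without control replicate 2 (adjusted p = 0.00622), with no filter beyond 1 count (0.0179) and in DESeq2 (0.0486), in a range from 0.00622 to 0.393.

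**Figure D3:**
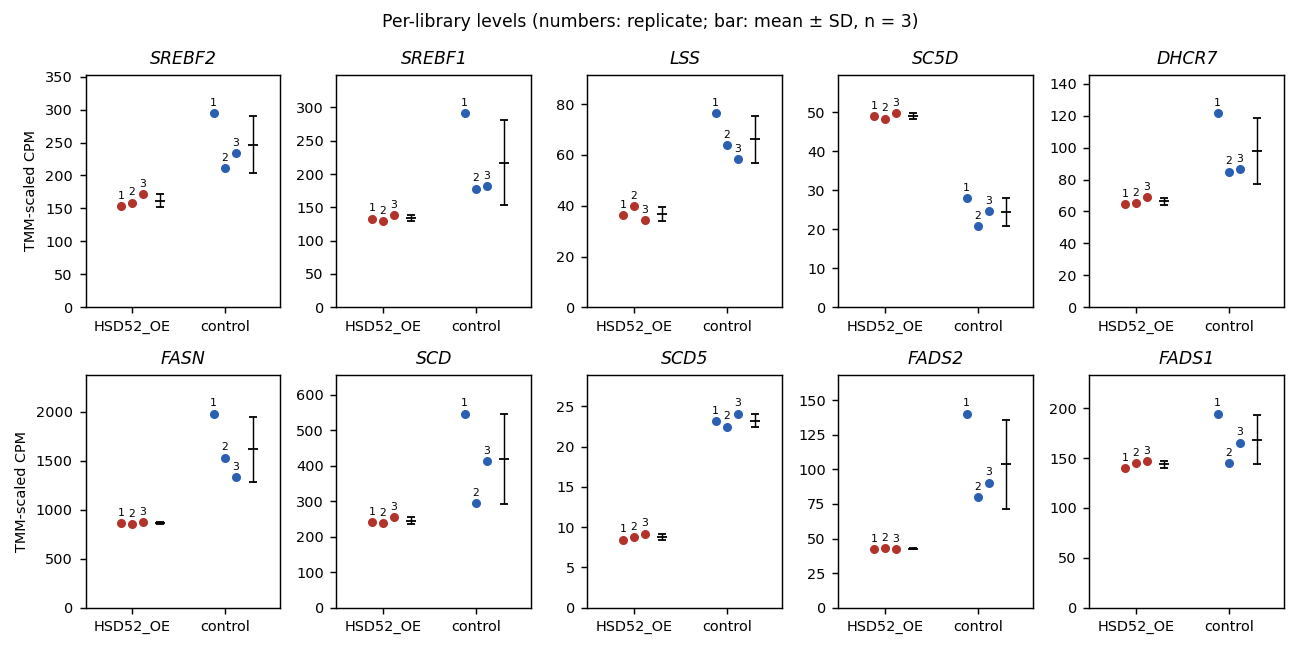
TMM-scaled CPM of 10 genes in each library, HSD52_OE left and control right, with the replicate number above each point and mean ± SD beside the points (n = 3). Control replicate 1 is the highest control for 9 of the 10 genes, SCD5 being the exception. SC5D is higher in HSD52_OE, and FADS1 overlaps between the groups.

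Among the elongation genes of the 36, TECR was the one that fell. Outside the 36, ELOVL2 and HACD1 fell, with log2 fold changes of -0.40 ± 0.11 and -0.50 ± 0.13 (edgeR adjusted p = 0.00733 and 0.00537). ELOVL3, ELOVL4, ELOVL7, HSD17B12 and HACD2, also outside the 36, passed in neither direction. ELOVL1, ELOVL5 and ELOVL6, which start the elongation of different chains, had log2 fold changes of -0.18 (95% interval -0.41 to 0.04), -0.03 (-0.22 to 0.17) and -0.13 (-0.31 to 0.05), and none passed. ELOVL1 had an adjusted p of 0.00390 in edgeR without control replicate 3 (range 0.00390 to 0.669). HACD3, the dehydratase of the elongation cycle, was at 118, 126 and 123 CPM in HSD52_OE libraries, against 127, 117 and 119.5 CPM in control libraries (95% interval of the log2 fold change -0.16 to 0.18). TECR, the reductase that ends each cycle, fell by 0.52 ± 0.09 on the log2 scale, to 106 ± 3.23 CPM in HSD52_OE cells, against 151 ± 14.7 CPM in control cells (edgeR adjusted p = 0.000186). In the annotation it shares 211 of its 5918 exonic bases with DNAJB1, where reads of both genes are uncertain.

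The acyl-CoA synthetases, which activate free fatty acids, differed. ACSL3 fell to 258, 271 and 264 CPM in HSD52_OE libraries, against 428, 323 and 361 CPM in control libraries (log2 fold change -0.49 ± 0.10, edgeR adjusted p = 0.000958). ACSL1 overlapped between groups, at 66.3 ± 3.87 CPM in HSD52_OE cells and 73.8 ± 7.12 CPM in control cells. ACSL1 made up 22.4% ± 0.645 of their summed TPM in HSD52_OE cells and 18.7% ± 0.832 in control cells.

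Per length the order of levels within the fatty acid genes was led by FASN, with ACLY (174 ± 2.19 TPM), SCD (168 ± 6.87 TPM) and ELOVL5 (159 ± 6.25 TPM) next in HSD52_OE cells. Of these 3, SCD and ELOVL5 were at 271 ± 82.9 and 153 ± 18.5 TPM in control cells, and ACLY at 231 ± 23.1 TPM. SCD and ACLY differed by less than the SD of SCD in both groups, so their order does not hold up against the spread. At the other end ACACB stood at 1.58 ± 0.205 TPM in HSD52_OE cells and 1.87 ± 0.207 TPM in control cells. Of the sterol genes FDFT1 was the highest, at 97.4 ± 4.65 TPM in HSD52_OE cells and 117 ± 14.3 TPM in control cells, with PMVK close to it at 89.4 ± 3.30 and 109 ± 19.2 TPM.

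The control libraries differed among themselves in these genes. Control replicate 1 was the highest of the 3 controls for 29 of the 36 genes, including all 4 regulators and 14 of the 16 fatty acid genes, whereas it was the highest control for 31.1% of all genes tested. The 16 fatty acid genes summed to 2478, 2499 and 2552 CPM in HSD52_OE libraries, against 4626, 3509 and 3505 CPM in control libraries. The 16 sterol genes summed to 663, 661 and 684 CPM in HSD52_OE libraries, against 899, 776 and 787 CPM in control libraries. The median coefficient of variation over the 36 genes was 3.71% in HSD52_OE cells and 14.2% in control cells, where over all genes tested it was 6.38% and 12.5%. Without control replicate 1, 3 regulators, 8 sterol genes and 9 fatty acid genes fell and SC5D rose, the counts seen with it. In these bulk libraries fewer cells of a type and less RNA per cell cannot be told apart.

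Markers of other cells were read in the same libraries. The 8 fibroblast markers summed to 59.3 to 62.1 CPM in HSD52_OE libraries and 145 to 240.4 CPM in control libraries. All 8 were called lower (edgeR adjusted p under 0.05), where 25.6% of all genes tested fell. The immune markers AIF1 and CD3E were at 0 counts in all 6 libraries, and the 7 immune markers summed to at most 2.79 CPM in any library. Of the 12 glial and glioma markers 9 were tested, of which 4 fell (44.4%) and 2 rose (22.2%) at an edgeR adjusted p under 0.05. Over all genes tested the shares were 25.6% and 25%, and over those with at least 10 CPM 33.9% and 19.1%. SOX9 was at 0.108, 0.156 and 0 CPM in HSD52_OE libraries, against 0.642, 1.88 and 0.777 CPM in control libraries. SLC1A3, S100B and CD44 fell by 0.55, 0.43 and 0.30 on the log2 scale, and GFAP and SOX2 rose by 0.59 and 0.34. VIM, NES and SOX2 had means of at least 93.6 CPM in both groups, GFAP was low at 54 to 155 counts a library, AQP4 and ALDH1L1 had at most 2 counts a library, and CHI3L1 had 0. The endothelial markers summed to at most 1.99 CPM in HSD52_OE libraries and 3.07 CPM in control libraries. Of 6 neuron markers STMN2 was at 0, and their sums were 66.1 to 69.8 CPM in HSD52_OE libraries and 72.4 to 98.1 CPM in control libraries. COL1A1, a fibrillar collagen, was at 5.44 ± 0.17 CPM in HSD52_OE cells and 72.4 ± 35.7 CPM in control cells. The part of the fibroblast and glial markers in the lipid gene values was not tested.

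A list of other genes of the mevalonate and sterol routes, which do not belong to the 36, also held genes of the branches to prenyl chains, dolichol and ubiquinone (GGPS1, DHDDS, NUS1, PDSS1, PDSS2 and COQ2), so its values are not those of sterol synthesis alone. Of 12 tested, 4 rose (33.3%) and 1 fell (8.33%) at an edgeR adjusted p under 0.05. Their median log2 fold change was 0.13, and over all genes tested 25% rose and 25.6% fell. TM7SF2, a reductase of the double bond left by CYP51A1, rose by 0.90 ± 0.16 on the log2 scale (edgeR adjusted p = 0.000236) at a low level, 9.81 ± 1.30 CPM in HSD52_OE cells and 5.25 ± 0.577 CPM in control cells. MSMO1, the methyl oxidase that works with NSDHL, fell by 0.28 ± 0.10 (adjusted p = 0.0281). Its call was lost in 5 of 14 alternatives, with an adjusted p of 0.162 without HSD52_OE replicate 1, 0.0540 without HSD52_OE replicate 2, 0.0595 without control replicate 1, 0.217 with library totals alone and 0.0742 when only protein-coding genes were used (range 0.0144 to 0.217).

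**Figure D4:**
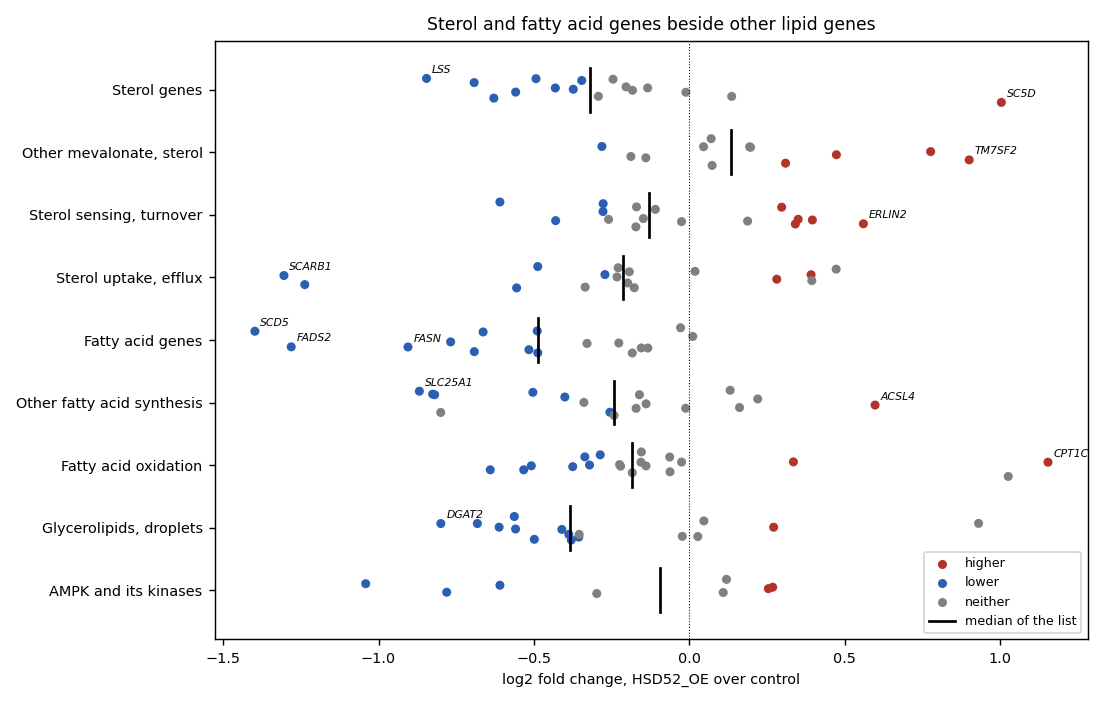
Log2 fold changes, HSD52_OE over control, of the sterol and fatty acid genes and of 7 other lists of lipid genes, 1 point a gene tested, with the median of each list as a bar. The medians were -0.32 for the sterol genes, 0.13 for the other genes of the mevalonate and sterol routes and -0.49 for the fatty acid genes.

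Of 16 genes tested that sense sterol or turn over its enzymes, 5 rose (31.2%) and 4 fell (25%). Their median log2 fold change was -0.13. Over all genes tested 25% rose and 25.6% fell, and over those with at least 10 CPM 19.1% rose and 33.9% fell. ERLIN2, part of a complex that marks membrane proteins for disposal, rose by 0.56 ± 0.10 on the log2 scale, and UBXN4, a further membrane protein of that disposal route, by 0.35 ± 0.09. NR1H2, a liver X receptor, fell by 0.43 ± 0.10. Of 16 genes of sterol uptake, transport and efflux, 2 rose and 5 fell (median -0.21). SCARB1, the receptor for high-density lipoprotein, had the smallest p among them. It was at 139, 136 and 144 CPM in HSD52_OE libraries, against 445, 285 and 304 CPM in control libraries (log2 fold change -1.30 ± 0.14, edgeR adjusted p = 4.65e-06). GRAMD1A, a carrier of sterol from the plasma membrane, fell by 0.56 ± 0.09. NPC2, which moves cholesterol out of lysosomes, rose by 0.39 ± 0.08, and LIPA, the lysosomal lipase, by 0.28 ± 0.10. The call of LIPA (adjusted p = 0.0286) was lost without any 1 of the 3 HSD52_OE replicates (0.0991, 0.0667 and 0.0782), without control replicate 2 (0.104, the highest) and in DESeq2 (0.0548).

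Of 17 further fatty acid synthesis genes tested, 6 were called lower (35.3%) and 1 higher (5.88%), at a median of -0.24 on the log2 scale. The lower share was close to the 33.9% of genes with at least 10 CPM, of which 19.1% were higher. Among all genes tested 25.6% were lower and 25% higher. SLC25A1, the carrier that exports citrate from mitochondria to ACLY, was at 80.2, 70.6 and 82.7 CPM in HSD52_OE libraries, against 141, 147 and 139 CPM in control libraries. MID1IP1, which helps acetyl-CoA carboxylase form filaments, fell by 0.83 ± 0.10 on the log2 scale (edgeR adjusted p = 5.93e-06), close to SLC25A1 at -0.87 ± 0.09 (adjusted p = 1.13e-06). With ACLY, ACACA and FASN, a gene that fell stood at citrate export, cleavage, carboxylation and chain synthesis. ACSL4, which activates polyunsaturated fatty acids, rose to 160.5, 167 and 167 CPM in HSD52_OE libraries, against 115, 92.3 and 119 CPM in control libraries, opposite to ACSL3.

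The chromosomal surroundings of each gene were read from the tested genes that start within 1 Mb. FASN lies at chromosome 17, 82078333 to 82098332 (hg38, minus strand), among 69 such genes of which 35 fell (50.7%, where 25.6% of all genes tested fell), and the median of their values was -0.29 on the log2 scale. Of them 5 had a lower value than FASN. TECR, on chromosome 19, had 17 of 35 neighbours lower (48.6%) with a median of -0.28, and MVD, on chromosome 16, had 12 of 27 (44.4%) with a median of -0.38. LSS had 8 of 22 neighbours lower (36.4%) with a median of -0.14. SCD5, at chromosome 4, 82629539 to 82798857 (minus strand), had 2 of 15 neighbours lower, and none had a lower value than its own. FADS2, at chromosome 11, 61792980 to 61867354 (plus strand), had 12 of 51 neighbours lower, and 1 had a lower value. SREBF2, at chromosome 22, 41833079 to 41907308 (plus strand), had 3 of 45 neighbours lower and 16 higher. The part of the surroundings in each gene's value was not tested.

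**Figure D5:**
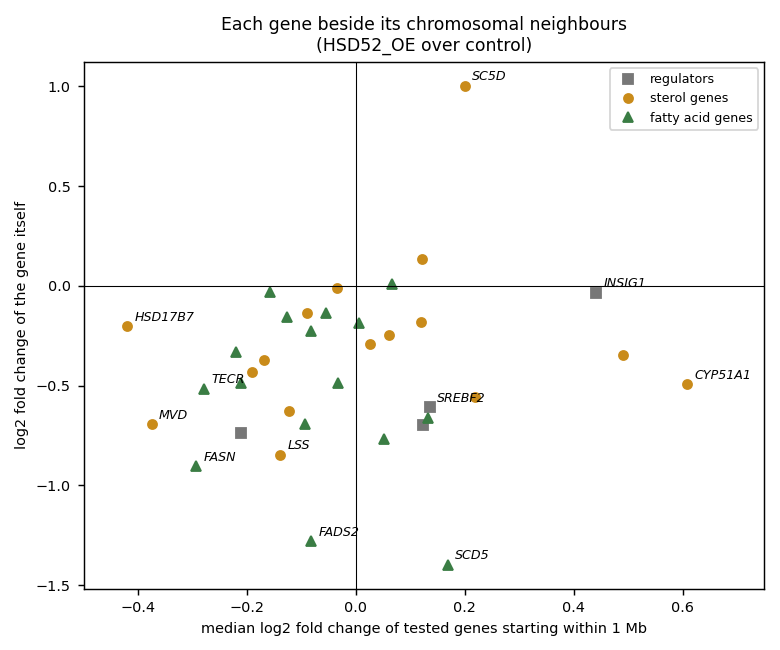
Log2 fold change of each of the 36 genes (vertical) against the median log2 fold change of tested genes starting within 1 Mb (horizontal). FASN, TECR and MVD sit where neighbours are lower too, at medians of -0.29, -0.28 and -0.38, whereas SCD5 at -1.40 has neighbours with a median of 0.17.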

How the data were processed

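RNA sequencing libraries of LN229 cells, 3 HSD52_OE and 3 control, were analysed. Per the labels' protocols, poly-A RNA was selected and second strands were made with dNTP. Per the submitters' processing notes, reads were aligned with HISAT2 2.0.5 to hg38 and counted with featureCounts 1.5.0-p3. The authors deposited raw read counts per gene, not normalized, in 1 column per sample. No source used here gives the strand setting or the filters on reads, so overlapping genes are uncertain.

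Counts were filtered with filterByExpr, which left 16322 genes, scaled by TMM and tested with edgeR 4.0.16 (robust quasi-likelihood test, limma 3.58.1, R 4.3.3) with group as the one term. P-values were adjusted by Benjamini-Hochberg across the 16322 genes, at a threshold of 0.05. At this depth 1 CPM is about 18 counts. Values after ± are SD for levels and SE for log2 fold changes, with the SE taken from the fold change and its F statistic. Intervals of 95% use the t distribution of that fit. TPM used the table's gene lengths, which equal the merged exons of GENCODE 29 for 58724 of 58735 genes; those exons gave the overlaps. Promoters came from RefSeq (GRCh38.p14).

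The 36 genes and the lists were chosen with earlier results of these data known. Named were all 36 genes and, from each other list, the 2 called genes of lowest p per direction. CPT1A, PRKAA2 and the elongation genes outside the 36 were named beyond this rule, after their values were seen. They were not read under the alternatives. Some genes under this rule are not reported here. No list was tested as a set. Alternatives were RLE size factors, library totals, protein-coding genes alone, 2 other low-count filters, DESeq2 1.42.0, limma-voom, a replicate block and each library left out. The test was first tested on simulated data, with 50 genes changed at each fold and 202 genes called. In the real libraries 50.6% of genes tested were called, a setting that the simulation did not cover.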

Additional observations from a re-analysis of the deposited data

How the results depend on the processing

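For the 36 genes, 464 of 504 fold changes under 14 alternatives kept their direction and their side of the threshold, 9 lost and 13 gained a call, and 18 changed direction. For the 25 other genes that the naming rule chose, 322 of their values kept both and 28 lost the call. Some of these 25 genes are not reported here, and their alternatives were chosen after the data were seen. The genes that changed direction, INSIG1, EBP, ELOVL5 and HACD3, passed in no direction in the analysis as reported. With library totals alone INSIG1, EBP and ELOVL5 had log2 fold changes of 0.089, 0.12 and 0.10, and with protein-coding genes alone 0.024, 0.047 and 0.030. EBP had 0.014 with at least 1 CPM in 3 libraries and 0.0027 in limma-voom, and HACD3 had -0.030 with no filter beyond 1 count and -0.015 in DESeq2. With 1 library left out INSIG1 ran from -0.22 to 0.070, EBP from -0.15 to 0.052, ELOVL5 from -0.11 to 0.044 and HACD3 from -0.019 to 0.030.

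With library totals alone the median change of all genes on the log2 scale was 0.13, against 0.01 with TMM, and there were 5337 higher and 2933 lower genes, against 4086 and 4173. There 5 sterol genes fell and 2 rose, while 9 fatty acid genes fell. The TMM factors that this setting leaves out differed by group, at 1.04 to 1.05 in HSD52_OE libraries and 0.940 to 0.987 in control libraries. With 1 library left out, 7 to 9 sterol genes, 9 to 10 fatty acid genes and 3 to 4 regulators fell. The replicate numbers were not stated to pair libraries, and same-numbered libraries deviated together only weakly (correlations of 0.0383, 0.0307 and 0.0328), though each correlated best with its own number. With a replicate block 4210 genes rose and 4226 fell, 10 sterol and 9 fatty acid genes among the lower, with IDI1 and NSDHL gaining a call (edgeR adjusted p = 0.0355 and 0.0349).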

Other observations

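Lists of lipid use and storage, which the 36 genes do not include, were read from the same edgeR test. Of 16 genes of glycerolipid synthesis and lipid droplets 10 fell (62.5%) and 1 rose (6.25%), with a median log2 fold change of -0.38. Over all genes tested 25.6% fell and 25% rose, and over those with at least 10 CPM 33.9% fell and 19.1% rose. DGAT2, which makes the final bond of triglyceride, was at 24.8, 26.6 and 29.1 CPM in HSD52_OE libraries, against 45.9, 45.0 and 49.2 CPM in control libraries (-0.80 ± 0.10, edgeR adjusted p = 7.10e-06). AGPAT3, an acyltransferase of phospholipid synthesis, fell by 0.68 ± 0.08 on the log2 scale. GPAM, which adds the first acyl chain to glycerol phosphate in mitochondria, was the gene that rose, by 0.27 ± 0.10 (adjusted p = 0.0360), and its call was lost in 7 of 14 alternatives (range 0.00356 to 0.186).

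Of 19 genes of fatty acid oxidation 7 fell (36.8%) and 2 rose (10.5%), with a median of -0.18. Over genes with at least 10 CPM 33.9% fell and 19.1% rose, and over all genes tested 25.6% and 25%. ACADS, the short-chain dehydrogenase, fell by 0.64 ± 0.13 and ECI1, an isomerase for unsaturated chains, by 0.53 ± 0.09 on the log2 scale. CPT1C, a brain form of the carnitine transferase, rose at a low level, with 4.95, 5.62 and 6.81 CPM in HSD52_OE libraries, against 2.63, 3.24 and 1.94 CPM in control libraries. CPT1A, a further form, fell (log2 fold change -0.38 ± 0.08, edgeR adjusted p = 0.00140). It was at 98.6 ± 1.24 CPM in HSD52_OE cells and 128 ± 9.47 CPM in control cells. ACADVL, the very-long-chain dehydrogenase, rose by 0.33 ± 0.10 (adjusted p = 0.0105, but 0.0565 without HSD52_OE replicate 1, the highest of its range from 0.000664).

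AMPK is the kinase that restrains acetyl-CoA carboxylase. Of 8 AMPK subunits and upstream kinases tested 3 fell (37.5%) and 2 rose (25%), with a median of -0.09. Over genes with at least 10 CPM 33.9% fell and 19.1% rose, and over all genes tested 25.6% and 25%. CAMKK2 was at 23.3, 21.3 and 20.5 CPM in HSD52_OE libraries, against 39.5, 34.9 and 37.5 CPM in control libraries, and STK11 fell by 0.61 ± 0.09 on the log2 scale. The AMPK subunit PRKAA2 had the largest change of the list (log2 fold change -1.04 ± 0.17, edgeR adjusted p = 0.000104). Its level was low, at 4.96 ± 0.849 CPM in HSD52_OE cells and 10.2 ± 1.41 CPM in control cells. PRKAG1 and PRKAB2 rose by 0.27 ± 0.09 and 0.25 ± 0.09, and lost their calls in 4 and 6 of 14 alternatives, with adjusted p up to 0.0873 and 0.191.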
